A study of Mus musculus with 8 samples.

Results

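The mitochondrial genome (chrM) and a stretch of chromosome 1 that piles up reads like a copy of it were followed through 8 mouse ChIP-seq libraries. The members were all 326 bins of 50 bp on chrM and the 200 bins of 50 bp between 24615001 and 24625000 of chromosome 1 (mm9), 526 of the 52838192 such bins over the covered extent of all chromosomes in the files. Both places were picked for their read density in these libraries, which differed on chrM between control replicate 1 and the rest and stood above the surroundings on chromosome 1. The level on chrM against control and the density on chromosome 1 against its surroundings are therefore given as descriptions, without a test. ChIP against control was tested in windows of all chromosomes, and the values of the chromosome 1 windows in that fit are given with this limit.

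Mitochondria carry their own small circular DNA in many copies per cell, packaged by mitochondrial proteins and not by histones. It encodes subunits of the respiratory chain and of ATP synthase, the ribosomal RNAs of the mitochondrial ribosome and a set of transfer RNAs, and it is transcribed by a dedicated polymerase, not by RNA polymerase II (Pol II). Fragments of it have been copied into nuclear chromosomes during evolution and are called nuclear mitochondrial insertions. A short read from such an insertion can match chrM as well as the nucleus, and in chromatin immunoprecipitation reads from chrM usually count as background. In RefSeq, the mouse mitochondrial genome lists 13 protein-coding genes, 2 ribosomal RNA genes and 22 transfer RNA genes. Its protein-coding genes stand in the order ND1, ND2, COX1, COX2, ATP8, ATP6, COX3, ND3, ND4L, ND4, ND5, ND6 and CYTB.

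The libraries came from cells of C57BL/6 background that the sample labels call neural progenitors derived from embryonic stem cells, while the study's title names embryonic stem cells and the growth protocol describes stem cells kept on irradiated feeder cells. Cells were fixed with formaldehyde and sonicated, and 2 libraries each were made with antibodies against PHF20 (which reads methylated histones and works with a histone acetyltransferase), Wdr5 (a scaffold protein of histone methyltransferase complexes that act at promoters) and Pol II, beside 2 control libraries. The protocol mentions both input DNA and IgG, and the sources used here do not say which of these the control libraries were. Fragments of about 250 bp were amplified in 15 cycles and sequenced on a MiSeq. Nothing says that the 2 libraries of a group came from separate cultures, so any spread between them may be technical.

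The libraries held 2260567 to 4600398 distinct read starts on the 19 autosomes and X, which served as the library size. The 2 extremes were both controls, replicate 1 with the most starts and replicate 2 with the fewest. Control replicate 1 also stood apart in how evenly its reads covered the nuclear chromosomes. The excess variation between 50 bp bins, the variance beyond counting noise divided by the squared mean, was 0.209 in control replicate 1 and 0.418 to 1.36 in the other 7 libraries, with windows of 5 kb above 5 times the library's mean left out. Results below are given with and without control replicate 1 where it bears on them.

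Reads on chrM were a small share of every library and far denser than nuclear reads. Control replicate 1 held 5099 distinct starts on chrM, 0.1108% of its nuclear starts (95% exact binomial interval 0.1078% to 0.1139%), and control replicate 2 held 547, or 0.0242% (0.02221% to 0.02631%). PHF20 replicates 1 and 2 held 662 and 1828 starts, or 0.02275% and 0.05061%. Wdr5 replicates 1 and 2 held 1317 and 233, or 0.03572% and 0.009008%, and Pol II replicates 1 and 2 held 890 and 637, or 0.03168% and 0.02738%. Control replicate 1 thus lay above all other libraries and Wdr5 replicate 2 below all others, and neither had its partner as its nearest neighbour. Counting all reads, duplicates included, the shares were 0.1282% and 0.02347% in the controls and 0.008393% to 0.04965% in the ChIP libraries. The intervals cover counting error only, since reads without molecular identifiers are not independent molecules.

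**Figure D1:**
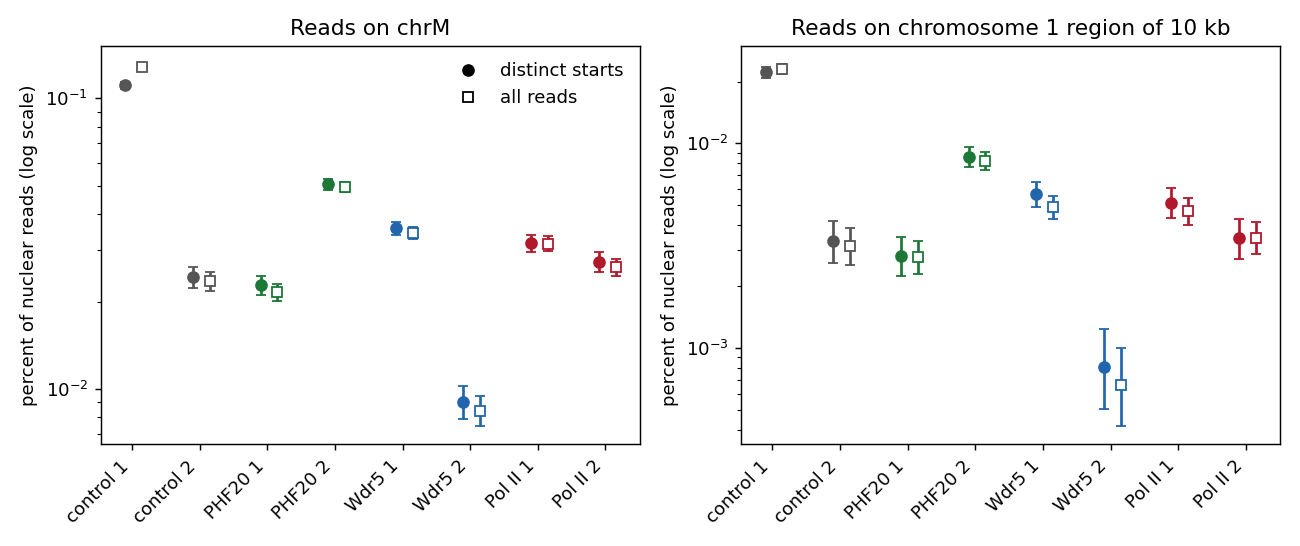
Percent of each library's nuclear reads that lay on chrM (left) and in the 10 kb region of chromosome 1 (right), on log axes, for the 8 libraries; filled circles are distinct starts, open squares all reads, and bars 95% exact binomial intervals. Control 1 is highest and Wdr5 2 lowest in both panels, and the partners of both lie among the remaining libraries.

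Control and ChIP groups overlapped on chrM. The mean share was 0.0675% ± 0.0613 in control (SD, n = 2), 0.0367% ± 0.0197 in PHF20 ChIP, 0.0224% ± 0.0189 in Wdr5 ChIP and 0.0295% ± 0.00304 in Pol II ChIP (n = 2 each). The SD was nearly as large as the mean for control and Wdr5, and control replicate 2 lay inside the range of the 6 ChIP libraries. Without control replicate 1 the 7 remaining libraries had a mean of 0.0288% ± 0.0128 (SD, n = 7). With 2 against 2 libraries an exact two-sided rank-sum test cannot go below p = 0.333, and with 2 against 6 not below 0.0714. Per kb, chrM held 179.5 times the mean nuclear density in control replicate 1, 39.2 times in control replicate 2 and 14.6 to 82.0 times in the ChIP libraries. The number of mitochondrial genomes per cell and the recovery of their DNA cannot be told apart in these ratios.

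The distribution of reads along chrM set control replicate 1 apart more sharply than the total did. It covered all 326 bins, with a median of 15.5 starts per bin and at most 28. The other 7 libraries left 48 to 236 bins without a start. Deeper libraries fill more bins, so the number of occupied bins was also computed for 233 starts, the depth of Wdr5 replicate 2, as the mean over all ways to draw them. It was 165.0 in control replicate 1, 144.7 in PHF20 replicate 2, 136.8 in Wdr5 replicate 1, and 90.0 to 111.4 in the other 5 libraries. Control replicate 2, with 109.7, lay among those 5.

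The excess variation between bins, which is corrected for counting noise, gave the same order except that PHF20 replicate 1 and Pol II replicate 2 changed places. It was 0.0374 in control replicate 1, 0.547 in PHF20 replicate 2 and 0.780 in Wdr5 replicate 1, and then 1.75 in Pol II replicate 1, 1.88 in control replicate 2, 2.24 in PHF20 replicate 1, 2.39 in Pol II replicate 2 and 3.69 in Wdr5 replicate 2. The correction leaves out that chrM can hold only 1 distinct start per position, and 31.3% of its positions were in use in control replicate 1. This can lower the value of that library. With all reads counted the excess variation was 0.117 in control replicate 1 and 0.662 to 4.25 in the others. The library order on the nuclear chromosomes was the same except that PHF20 replicate 1 and Pol II replicate 2, at 0.915 and 0.913, changed places. The 3 libraries with the most even chrM coverage were also the 3 with the largest chrM share, and the least even one had the smallest. The part that nuclear evenness plays in the chrM values was not tested.

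**Figure D2:**
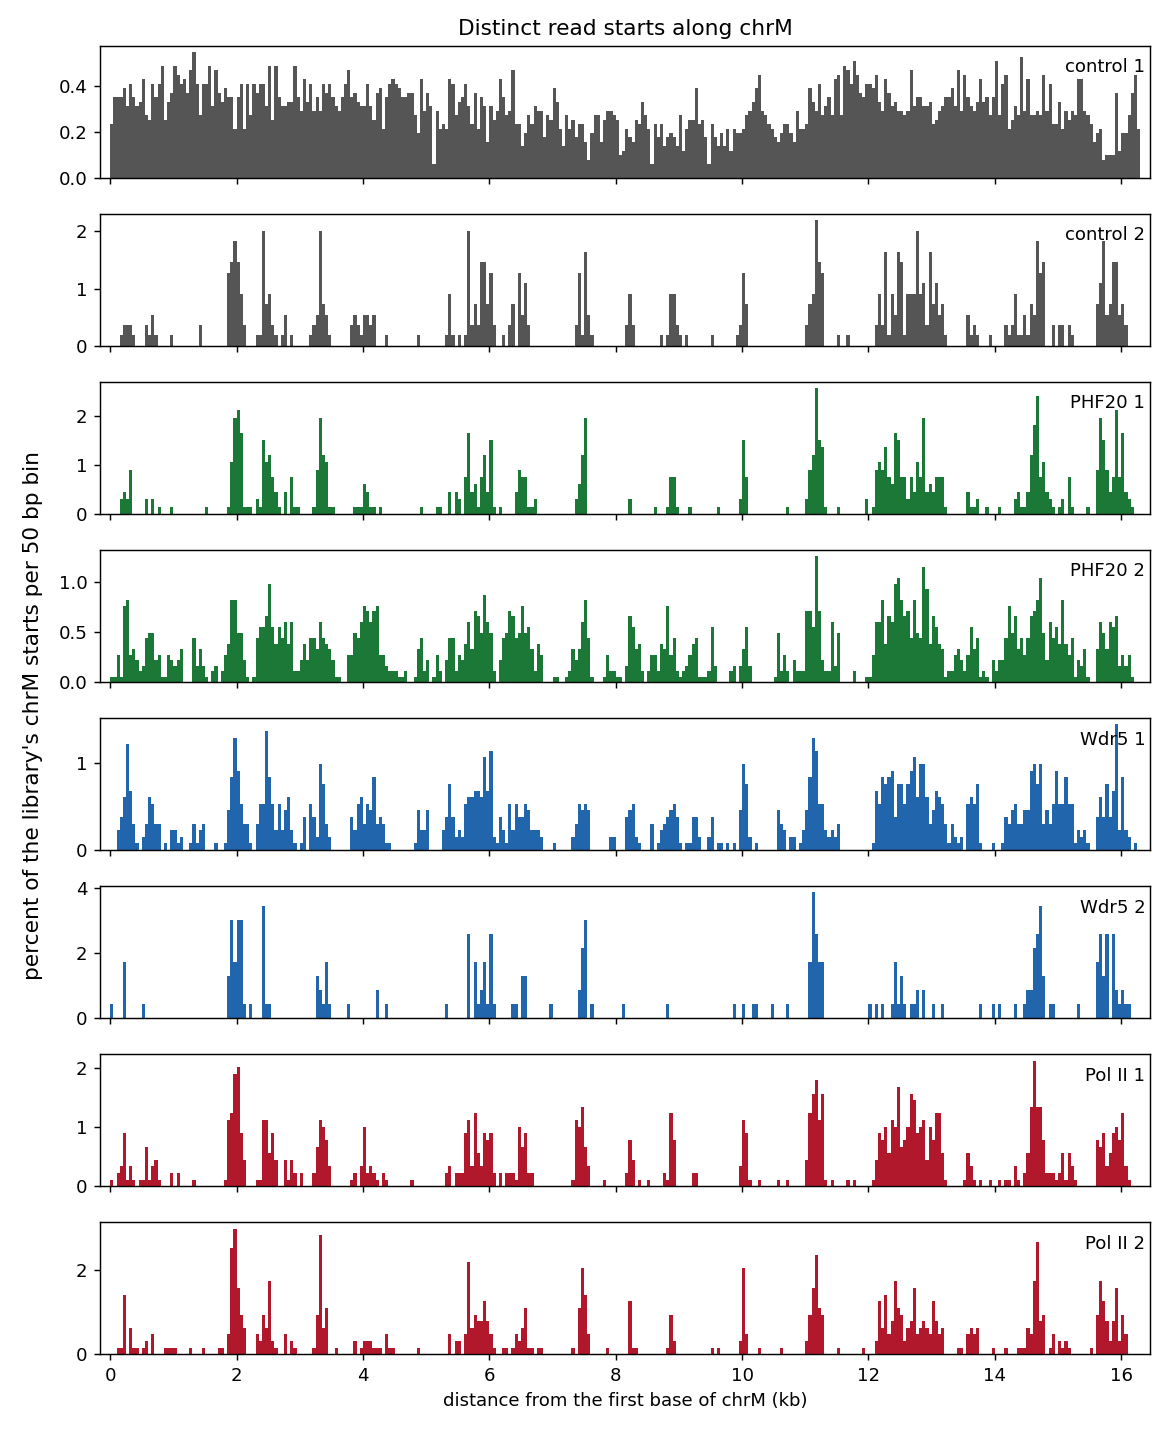
Distinct read starts per 50 bp bin along chrM as percent of each library's chrM starts, against the distance from the first base of chrM in kb; each panel is 1 library with its own vertical scale. Control 1 is covered throughout, with a lower level between about 6.4 and 11.1 kb, and the other 7 libraries rise and fall at the same places.

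The uneven libraries were uneven in the same places. Over the 325 full bins of 50 bp, starts in the 7 libraries other than control replicate 1 had Spearman correlations of 0.414 to 0.831 between pairs (median 0.713 over 21 pairs). The pairs with Wdr5 replicate 2, the library with the fewest starts, gave 0.414 to 0.572, and the 15 others 0.644 to 0.831. Control replicate 1 correlated at -0.0762 to 0.0136 with the 7. The 3 pairs of the same target or control gave 0.427, 0.644 and 0.775 for Wdr5, PHF20 and Pol II, which lies inside the range of 0.414 to 0.831 of the 18 pairs of different groups. The bins share base composition and sequence in all libraries, so these values are descriptions and carry no test.

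A set of 19 short stretches carried much of the reads. They were runs of bins above 3 times an even share in the mean of the 7 libraries, 50 to 250 bp long and together 1650 bp or 10.1% of chrM, and they were chosen after the data had been seen. They held 23.0% to 62.2% of the chrM starts of those 7 libraries, which follows in part from the choice, and 9.94% of those of control replicate 1, which took no part in it. The longest ran from 11051 to 11300 of chrM (mm9) and held 36 starts in control replicate 2, 50 and 63 in PHF20, 57 and 27 in Wdr5 and 65 and 44 in Pol II. That was 3.45% to 11.6% of their chrM starts, against 1.71% (87 starts) in control replicate 1, which is 1.11 times an even share. Another, from 1901 to 2100, held 2.63% to 10.7% in the 7 libraries and 1.33% in control replicate 1. The stretch from 14601 to 14750 held 2.57% to 8.15% and 0.843%.

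Near the end of the molecule the libraries went opposite ways. The stretch from 15651 to 15750 held 3.94 times an even share in the mean of the 7 libraries and 0.48 times in control replicate 1. In the 500 bp from 15501 to 16000, control replicate 1 held 85 starts, against 158 in the 500 bp before. The same comparison gave 46 against 7 in control replicate 2, and 62 against 10 and 68 against 57 in PHF20. It gave 64 against 49 and 28 against 1 in Wdr5, and 53 against 17 and 50 against 6 in Pol II.

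Single bins show the contrast. The highest bin by the mean over all libraries, 11151 to 11200 of chrM, held 12 starts in control replicate 2, 17 and 23 in PHF20, 15 and 6 in Wdr5 and 16 and 15 in Pol II. Control replicate 1, the library with the most chrM starts, held 15 there, fewer than both PHF20 libraries and Pol II replicate 1. The next 4 bins were 1951 to 2000, 14651 to 14700, 2001 to 2050 and 11101 to 11150, with a mean share of 1.41% to 1.59% of chrM starts. At the other end, the bins 7151 to 7200, 9701 to 9750 and 7751 to 7800 held 7, 7 and 8 starts in control replicate 1 and 0 in each of the other 7 libraries. The bins 5101 to 5150 and 8051 to 8100 held 3 and 5 in control replicate 1, 1 each in PHF20 replicate 2 and 0 in the rest. In all, 26 bins were empty in all 7 libraries.

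The unevenness also showed over whole kb. Between the lowest and the highest of the 16 full kb of chrM, starts differed 2.07 times in control replicate 1 and 4.9 to 31.0 times in the others. The kb from 12001 to 13000 held 354 and 93 starts in the controls, 111 and 235 in PHF20, 175 and 19 in Wdr5, and 157 and 95 in Pol II. The kb from 9001 to 10000 held 207 and 6, 4 and 52, 32 and 1, and 7 and 4 in the same order. Control replicate 2 lay with the ChIP libraries in both.

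Set per kb and per 1000000 nuclear starts of the library, here called the density, the libraries other than Wdr5 replicate 2 differed less in the bins dense elsewhere than in the remaining bins. For each library the 33 densest bins (10.1% of chrM) were chosen from the other libraries, without control replicate 1 and without the library itself, and are called hot bins here. In the hot bins, the density was 66.8 in control replicate 1, 60.3 in control replicate 2, 65.6 and 67.4 in PHF20, 56.5 in Wdr5 replicate 1, and 73.1 and 77.6 in Pol II. Wdr5 replicate 2 was lower, at 31.6. Outside the hot bins control replicate 1 had a density of 68.1, close to that inside them.

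Outside the hot bins the other 7 libraries were all lower. The density there was 9.72 in control replicate 2, 8.14 and 26.9 in PHF20, 18.0 and 2.59 in Wdr5, and 13.4 and 9.95 in Pol II. In density the 2 controls thus differed little in the hot bins, at 66.8 and 60.3, and far more outside them, at 68.1 and 9.72. As a share, the hot bins took 9.94% of the chrM starts of control replicate 1 (95% exact binomial interval 9.13% to 10.8%), an interval that holds the 10.1% of chrM that they span. In the other libraries they took 21.99% in PHF20 replicate 2 (20.1% to 24.0%) up to 57.9% in Wdr5 replicate 2 (51.3% to 64.4%). With all reads counted, the density outside the hot bins was 79.1 in control replicate 1 and 2.28 to 26.1 in the others.

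**Figure D3:**
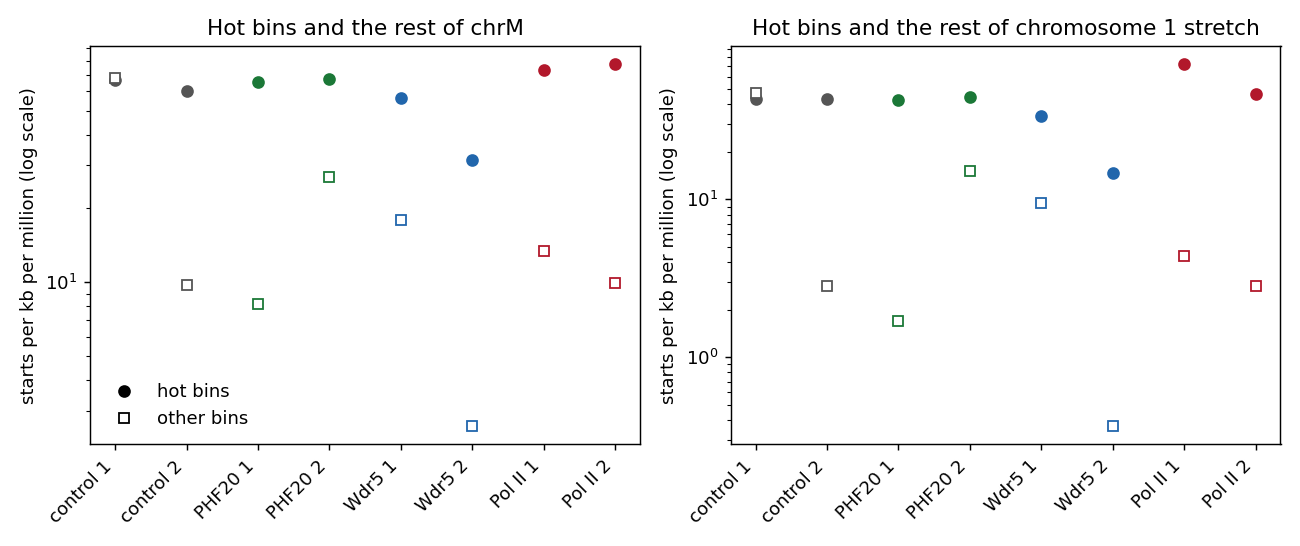
Distinct starts per kb and 1000000 nuclear starts in the hot bins (filled circles) and in the other bins (open squares) of chrM (left) and of the chromosome 1 stretch (right), on log axes, 1 column per library. On chrM the circles lie between 31.6 (Wdr5 2) and 77.6 and the squares between 2.59 (Wdr5 2) and 68.1; without Wdr5 2 they lie between 56.5 and 77.6 and between 8.14 and 68.1.

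Whether any part of chrM took up more reads after ChIP with 1 of the antibodies was tested on the bins, each scaled to the library's own chrM total so that the level played no part. Of the 326 bins, 201 had a mean of at least 3 starts and were tested, and only 110 would have passed without control replicate 1, so the rest entered the test through that library. No bin was called in PHF20, Wdr5 or Pol II ChIP against control (0 of 201 in each, 0% called; limma-trend with Benjamini-Hochberg adjustment, smallest adjusted p = 0.989, 0.984 and 0.941). At an unadjusted p under 0.05 there were 0, 2 and 1 bins. In simulated data the same fit recovered 7.69% of bins raised 2-fold in PHF20, 0% of those raised 4-fold and 91.7% of those raised 8-fold, so the absence of calls does not show that no bin differed. The simulated libraries shared 1 profile along chrM and 1 fixed noise level, whereas the real controls had a Spearman correlation of -0.0762. The fit may therefore recover less in the real libraries. The bin with the largest change for Pol II, 7451 to 7500, held 12 and 13 starts in the Pol II libraries and 12 and 1 in control, a log2 fold change of 2.36 with SE 0.89 (limma-trend, adjusted p = 0.941). The same bin held 8 and 11 in PHF20 and 6 and 5 in Wdr5, so all 6 ChIP libraries lay above control replicate 2 there. Without control replicate 2, which leaves control replicate 1 as the only reference, some bins were called in each comparison, and without control replicate 1 none were. The filter was applied anew each time, so these fits tested different sets of bins and their calls cannot be set side by side. All calls made without control replicate 2 were lower in ChIP, a direction that the filter favours, since many of the tested bins passed it only through control replicate 1.

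The chromosome 1 region was dense over 1 sharply bounded stretch. In control replicate 1 an unbroken run of 94 occupied bins reached from 24618351 to 24623050 of chromosome 1 (mm9), 4700 bp, and this run is taken as the copy below. It held 1013 of the 1026 starts of the region in control replicate 1, 71 of 75 in control replicate 2, 77 of 82 and 305 of 310 in PHF20, 205 of 208 and 21 of 21 in Wdr5, and 143 of 144 and 77 of 80 in Pol II. The rest of the region held 0 to 13 starts per library, at 0 to 1.64 times the density of the flanks. By the other definition, bins above 5 times the flank density in the mean of the libraries, 95 bins were dense, 92 of them inside the run. The 3 bins just inside that threshold stood at 5.03, 6.69 and 7.70 times the flanks and the 3 just outside at 4.72.

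**Figure D4:**
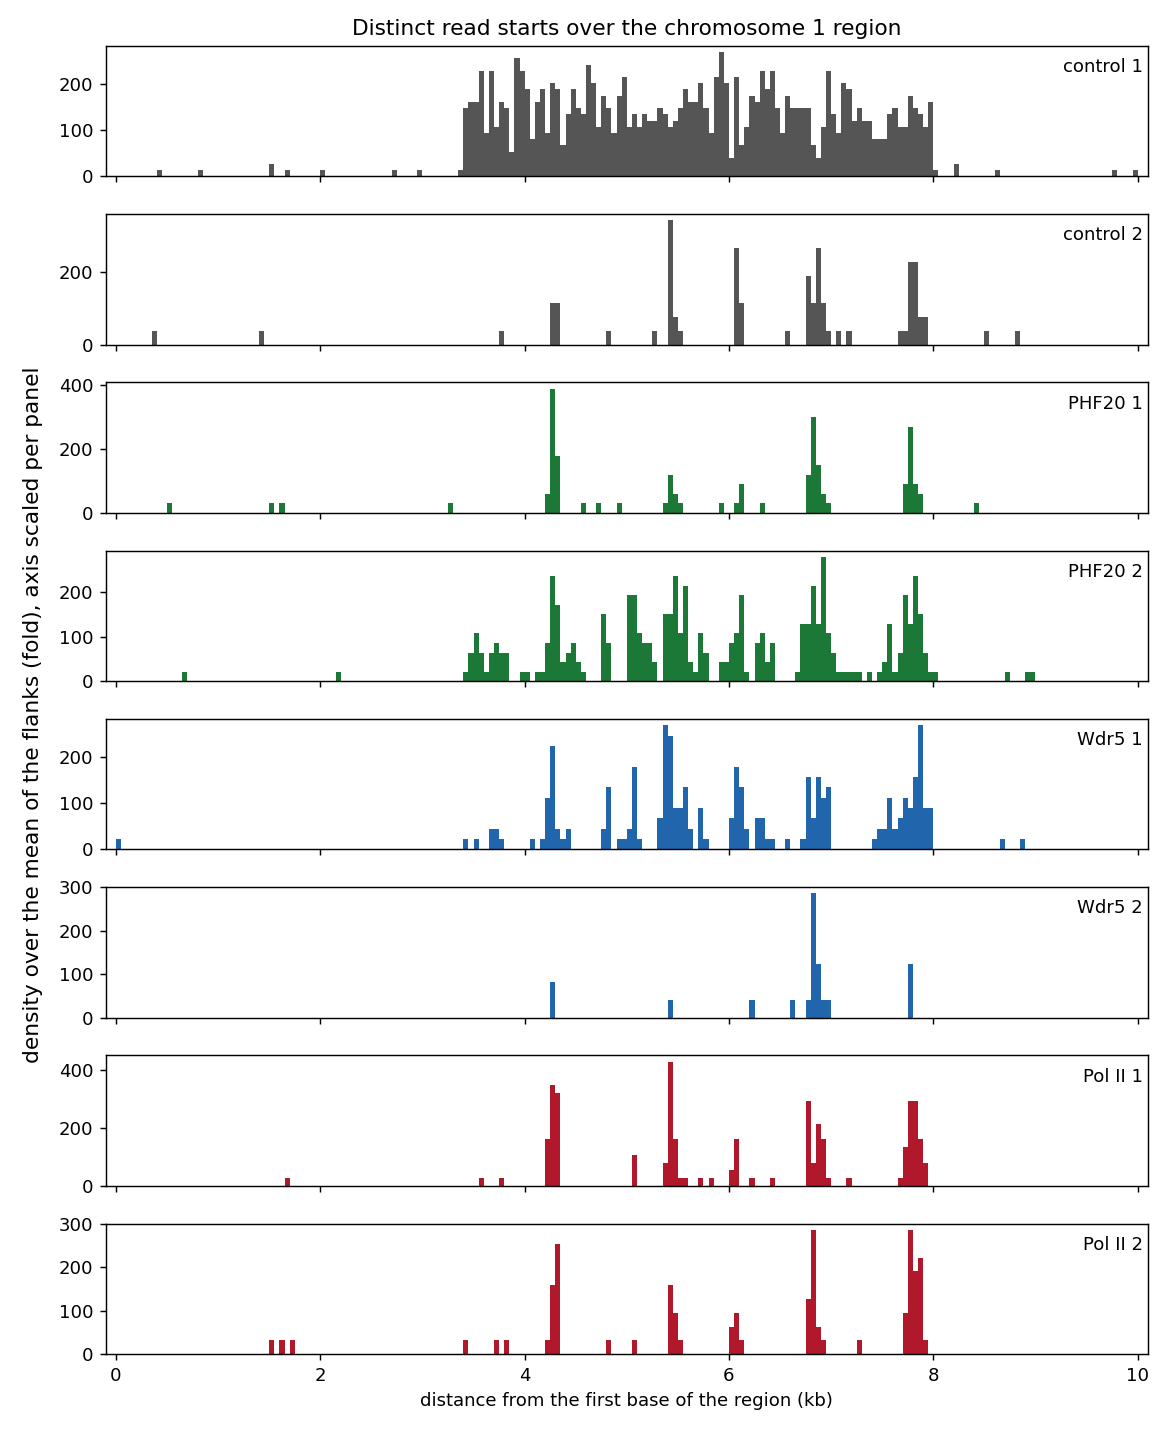
Density of distinct starts per 50 bp bin over the chromosome 1 region, as fold over the mean of the 100 kb flanks on both sides, against the distance from the region's first base in kb; each panel is 1 library with its own vertical scale. Control 1 fills the stretch from about 3.4 to 8.0 kb evenly, and the other 7 libraries show separate peaks inside it.

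Density over the flanks followed the order of the chrM share at both ends. The 10 kb region held 68.6 times the density of the 100 kb on either side in control replicate 1 (95% interval 60.3 to 78.3) and 14.2 times in control replicate 2 (10.4 to 19.2). It held 12.2 and 33.2 times in PHF20, 23.2 and 4.29 times in Wdr5, and 19.3 and 12.7 times in Pol II. The flanks themselves held 0.490 to 1.495 starts per kb. Within the run of 4700 bp the ratio was 144.2 in control replicate 1 and 9.12 to 69.4 in the other 7 libraries. As a share of the library, the region took 0.0223% in control replicate 1, 0.003318% in control replicate 2, and 0.0008119% in Wdr5 replicate 2 to 0.008582% in PHF20 replicate 2.

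Reads on chrM were sparser over 1 stretch of the same length. Among all stretches of 4700 bp on chrM, the one with the fewest reads in control replicate 1 ran from 6401 to 11100. It held 275.3 reads per kb there, duplicates included, against 492.0 per kb on the rest of chrM, a ratio of 0.56. The chromosome 1 run held 265.5 reads per kb in the same library, 0.964 times the sparse stretch, and the sum of both was 1.10 times the rest of chrM. With distinct starts, of which chrM can hold only 1 per position, the sparse stretch was at 0.666 and the sum at 1.29 times the rest. In the other 7 libraries, which took no part in choosing it, the sparse stretch held 0.401 to 0.567 times the density of the rest of chrM. The chromosome 1 run held 0.799 to 0.945 times as many reads as the sparse stretch in 6 of the 7 libraries, and 0.564 times in Wdr5 replicate 2, where it rests on 22 and 39 reads. The sum of both came to 0.627 to 1.06 times the rest of chrM in the 7 libraries.

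The peaks inside the run matched those of chrM read backwards. The profile of the run, pooled over the 7 libraries other than control replicate 1 in 10 bp steps smoothed over 50 bp, was slid along chrM in both directions. In the opposite direction the best match was at 6271 to 10970 of chrM (mm9), with a Pearson correlation of 0.938 over 470 points, and the next best place more than 200 bp away gave 0.447. In the same direction the best place gave 0.523. Taken one by one, all 7 libraries had their best reversed match starting between 6261 and 6281, with correlations of 0.659 to 0.90. In the same direction they reached 0.317 to 0.811, the highest in Wdr5 replicate 2 with its 21 starts in the run. Neighbouring points are not independent and the places were searched, so these correlations carry no test.

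That place nearly coincided with the sparse stretch, which had been found in control replicate 1 alone. Control replicate 1 had no clear match of its own, with 0.305 in the opposite and 0.296 in the same direction, and its run was nearly even (excess variation 0.0404, against 0.669 to 10.9 in the others). In the matching stretch chrM held 1026 starts over the 7 libraries and the run held 899, a ratio of 0.876. In the gene table of RefSeq, made for GRCm38 and used for names only, chromosome 1 carries a pseudogene, Gm10925, that has mt-Atp6 among its synonyms and stands next to the pseudogene Gm10222, between Tubb4b-ps2 and Lmbrd1. Its place relative to the run was not analysed here, because the builds differ.

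**Figure D5:**
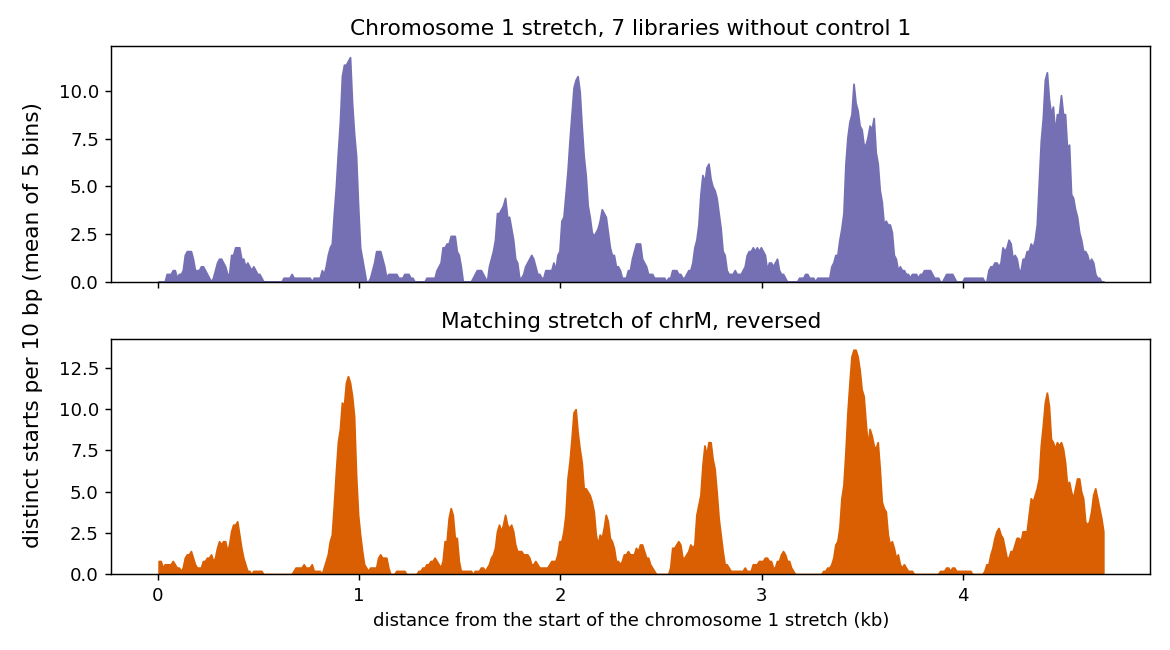
Distinct starts per 10 bp, smoothed over 50 bp and summed over the 7 libraries other than control 1, along the chromosome 1 stretch (top) and along the matching stretch of chrM drawn in reverse (bottom), against the distance from the start of the chromosome 1 stretch in kb. The tall peaks of the upper panel have counterparts at the same distances in the lower one.

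In the run as on chrM, libraries differed less in the places dense in other libraries than in the rest, although Wdr5 replicate 2 was low and Pol II replicate 1 high in those places. With 9 of the 94 bins chosen as before from the other libraries, their density was 43.5 in control replicate 1, 43.2 in control replicate 2, 42.8 and 44.3 in PHF20, 33.8 and 14.6 in Wdr5, and 72.0 and 46.8 in Pol II. In the other bins of the run it was 47.2 in control replicate 1 and 0.364 to 15.2 in the 7 remaining libraries. Between the bins of the run, Spearman correlations were 0.272 to 0.706 among those 7 and -0.179 to -0.0134 with control replicate 1. The densest single bin by the mean over libraries, 24619251 to 24619300, held 15 and 3 starts in the controls, 13 and 11 in PHF20, 10 and 2 in Wdr5, and 13 and 5 in Pol II. The other 4 of the 5 densest began at 24620401, 24622751, 24621801 and 24622801.

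Per kb, the region held 0.328 times the chrM density in control replicate 1 (95% interval 0.306 to 0.351) and 0.223 times in control replicate 2 (0.173 to 0.285). The ratio was 0.202 and 0.276 in PHF20, 0.257 and 0.147 in Wdr5, and 0.264 and 0.205 in Pol II. Means were 0.276 ± 0.0738 in control, 0.239 ± 0.0527 in PHF20, 0.202 ± 0.0781 in Wdr5 and 0.234 ± 0.0417 in Pol II (SD, n = 2 each), and the ranges of all 4 groups overlapped. Set over the 95 dense bins alone, the group means were between 0.421 and 0.564. The ratio was highest in control replicate 1 and lowest in Wdr5 replicate 2, as the chrM share was.

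Over the chromosome 1 copy no call was made between ChIP and control. In simulated data the fit found 0% of 2-fold and 18% of 4-fold rises in PHF20, in windows drawn from all that were tested. Those windows were not matched to the counts of the copy or to the spread of its controls. The rates therefore do not give the recovery there, and the absence of calls does not show that the copy did not differ. In a test of 456575 windows of 5 kb, 1, 0 and 4 windows were called for PHF20, Wdr5 and Pol II against control (0.000219%, 0% and 0.000876% called; limma-trend, Benjamini-Hochberg adjusted p under 0.05), and neither of the 2 windows of the region was among them. At an unadjusted p under 0.05 the 3 comparisons had 13960, 21591 and 26259 windows. The window from 24615001 to 24620000 held 389 and 10 starts in the controls, 28 and 78 in PHF20, 40 and 2 in Wdr5, and 34 and 21 in Pol II. All 6 ChIP libraries lay below control replicate 1 and 5 of the 6 above control replicate 2.

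The log2 fold changes of this window were -0.46 (PHF20), -2.36 (Wdr5) and -0.90 (Pol II), each with SE 0.50 (limma-trend, adjusted p = 1, 0.342 and 0.878; unadjusted p = 2.99e-06 for Wdr5). The window from 24620001 to 24625000 held 637 and 65 starts in the controls, 54 and 232 in PHF20, 168 and 19 in Wdr5, and 110 and 59 in Pol II, with log2 fold changes of -0.86, -1.73 and -0.99 and SE 0.53 for each (limma-trend, adjusted p = 1, 0.994 and 0.876). The fit draws these SEs toward the spread of other windows, and the p-values rest on them. They therefore understate the spread between the 2 controls, which held 389 and 10 starts in the first window. The region was also picked with read densities of these libraries in view, so the p-values of its windows are not independent of that choice. Leaving out a control changed the direction for PHF20 and Pol II and the size of the change for Wdr5. Against control replicate 1 alone, the log2 fold changes of PHF20, Wdr5 and Pol II were -2.50, -4.41 and -2.94 in the first window. In the second window they were -1.98, -2.86 and -2.11. Against control replicate 2 alone, PHF20 and Pol II turned higher, at 1.57 and 1.12 in the first window and 0.26 and 0.13 in the second. Wdr5 stayed lower, at -0.31 and -0.61.

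The 4 windows of chrM in the same fit had log2 fold changes against control of -0.72 to -0.33 in PHF20, -1.64 to -1 in Wdr5 and -0.97 to -0.57 in Pol II, given without a test because their level had been in view. In the window from 1 to 5000 the controls held 1856 and 134 starts and the ChIP libraries 61 to 554. In each of the 4 windows control replicate 1 was the highest library and Wdr5 replicate 2 the lowest.

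Duplicate reads were more frequent on chrM than on nuclear chromosomes in control replicate 1 only. All reads per distinct start came to 1.37 on chrM in control replicate 1, above the 1.19 of its nuclear chromosomes, and there 31.3% of all chrM positions were already in use as a start. In the other 7 libraries, which used 1.43% to 11.2% of the positions, the ratio was 1.20 to 1.46 on chrM and 1.26 to 1.53 on the nuclear chromosomes, and it was lower on chrM in each of them. On the chromosome 1 region it was 1.05 to 1.54. No single chrM start held more than 9 reads.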

How the data were processed

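Chromatin immunoprecipitation libraries were sequenced, and the deposited files list each aligned read by chromosome, start and end, with other values such as strand absent; these positions are the authors' output. Build mm9 and the tools Bowtie 0.12.7, CASAVA 1.6 and FastQC were used, per the submitters' processing notes. The handling of reads that match several places is not given there; it bears directly on a nuclear copy of chrM. All reads were 44 bp. Reads with the same chromosome and start were counted once (distinct starts), by midpoint 22 bp from the start, over 2260567 to 4600398 nuclear starts per library. Groups and replicate numbers came from the sample titles. Intervals are exact binomial at 95%, for ratios conditional on the sum.

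Values of log2 CPM (prior count 2) computed from the starts went into limma-trend (limma 3.58.1, R 4.3.3), 1 mean per group over all 8 libraries with 4 residual degrees of freedom. Features were 5 kb windows and, scaled to the chrM total, 50 bp bins of chrM, with a mean of at least 3 starts. Named bins were the 5 highest and 5 lowest covered bins of chrM and the 5 densest of the chromosome 1 region. The fit was tested on simulated data: among windows with a simulated rise in PHF20, 0% were recovered at 2-fold, 18% at 4-fold, 80% at 8-fold and 100% at 16-fold (446673 tested), and 3 unchanged windows were called; the real comparisons gave 1, 0 and 4 calls. For chrM bins it recovered 7.69%, 0%, 91.7% and 100% among 199, with 0 unchanged bins called. Simulated libraries shared 1 profile and 1 fixed noise level, so these rates may be higher than those in the real libraries. Scripts ran in Python 3.11.15 with scipy 1.17.1, numpy 2.4.6, matplotlib 3.10.9 and pandas 2.3.3. The members were chosen with earlier results of these data known. The hot bins, the 19 stretches, the 4700 bp run and the reversed match were added after the data were seen. No sequence is shown, because no genome of build mm9 was used.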

Additional observations from a re-analysis of the deposited data

How the results depend on the processing

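Shares, densities and ratios moved by less than 1 SD when all reads were counted, when every chromosome entered the denominator or when the flanks were 20 kb. For the shares and densities of control and Wdr5 this SD of 2 libraries was about as large as the mean, so it is a wide yardstick. With 20 kb flanks the mean density over the flanks went from 41.39 to 32.92 in control and from 22.7 to 15.8 in PHF20. It went from 13.76 to 11.01 in Wdr5 and from 16.01 to 15.44 in Pol II. The ratio of the chromosome 1 copy to chrM rose, over the dense bins alone, to 0.564 in control, 0.490 in PHF20, 0.421 in Wdr5 and 0.490 in Pol II, because this leaves out the empty part of the region. With the replicate number as a block, the 5 kb calls were 1, 0 and 4 for PHF20, Wdr5 and Pol II and the chrM bin calls 0, as without it, so it changed no call. Same-numbered libraries share only a number (correlations of their deviations -0.208 to 0.308 over 6 pairs of groups). The 4 Pol II windows fell to 0 without a low-count filter and with a prior count of 0.5; the cause was not tested. Leaving out 1 library gave 1 to 13 calls at 5 kb for PHF20, 0 to 193 for Wdr5 and 0 to 205 for Pol II, and 0 to 14, 0 to 21 and 0 to 20 chrM bins. The highest counts all came without control replicate 2. Without control replicate 1, 47 windows were called for Pol II and 2 for PHF20. Wdr5 had 5 calls without Wdr5 replicate 1, and Pol II had 0 without any single PHF20 or Pol II library. The 2 windows of the copy then ranged from -2.50 to 1.57 and -1.98 to 0.26 for PHF20, and from -2.94 to 1.12 and -2.11 to 0.13 for Pol II on the log2 scale, and without PHF20 replicate 1 PHF20 turned to 0.10 and 0.02. For Wdr5 they ranged from -4.41 to -0.31 and from -3.00 to -0.47. The choice of Wdr5 library mattered too, with -3.86 in the first window without Wdr5 replicate 1 and -0.85 without Wdr5 replicate 2. With 1 library left in a group, it is assumed to vary like the others. The filter was applied anew in each of these fits, so their calls come from different sets of windows and bins. At 233 starts on 326 bins, a 50 bp bin of Wdr5 replicate 2 held under 1 start on average, so only large differences between bins were detectable there.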
